A study of Homo sapiens with 4 samples.

Results

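The genes described here are 10 extracellular matrix genes, chosen by name: 5 that encode proteins of the interstitial and provisional matrix (TNC, FN1, THBS1, TGFBI and COL1A1) and 5 that encode laminin chains (LAMA5, LAMB1, LAMB2, LAMB3 and LAMC1). Each symbol matched 1 row of a table of 19389 protein-coding genes, so all 10 of 10 were found, and all 10 passed the filter on low values that left 11318 genes for testing. The RNA came from SW620, a long-established line of human colorectal cancer cells, as 2 libraries of control cells and 2 libraries of cells kept with 150 µM hydrogen peroxide (H2O2), an oxidant, for 2 days. The dose is in µM in the sample labels and in mM in the series' design text, and the series' title calls the exposed cells senescent, meaning lastingly out of division. The genotype of both groups is that of the line, and the labels do not tell whether libraries sharing a group had separate cultures, so the p-values here reflect library-to-library spread alone, which may be technical.

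The interstitial matrix fills the space around cells, and its glycoproteins carry signals as well as load. Fibronectin assembles into fibrils that cells hold through integrins, tenascin-C and thrombospondin-1 modulate that hold, and collagen I gives tensile strength. Basement membranes are thin sheets under epithelia, built on a network of laminins, each a trimer of an alpha, a beta and a gamma chain. In the gut, trimers of alpha5 with beta1 or beta2 and gamma1 lie under the epithelium, and a trimer that holds alpha3 and beta3 anchors epithelial cells through integrins.

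In H2O2-treated cells 4 of the 5 interstitial genes (TNC, FN1, THBS1 and TGFBI) lay below both controls, and 4 of the 5 laminin genes (LAMA5, LAMB1, LAMB2 and LAMC1) lay above both controls. By limma, a linear model test fitted across all genes, 0 of the 10 passed at an adjusted p under 0.05, where the call rate over all genes was 0.0% in either direction. At an unadjusted p under 0.05 there were 4 lower genes (TNC, FN1, THBS1 and TGFBI) and 2 higher ones (LAMB1 and LAMB2) among the 10. With no filter on low values, TGFBI, LAMB1 and LAMB2 were under that p and TNC, FN1 and THBS1 were not. With the filter, an unadjusted limma p under 0.05 marked 4.91% of all genes tested as lower (556 genes) and 6.22% as higher (704 genes). Of all genes tested, 24.0% had both treated libraries below both controls and 19.3% had both above. With all libraries brought to an equal total (TPM) the split at that unadjusted p was 1213 higher and 131 lower, and the median change of all genes moved by 0.17 on the log2 scale. That rescaling turned the sign of none of the 10 genes, but TGFBI was no longer under that p, nor was it after quantile or loess normalization. After upper-quartile scaling neither THBS1 nor TGFBI was under it.

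Promoters are shown for TNC, FN1 and THBS1, the 3 members with the largest negative changes, and for LAMB2, the laminin member with the largest positive one. Each line holds the 250 bases before the transcription start, 5′ to 3′ on the gene's strand, from RefSeq on GRCh38.p14. They lie at chr9:115118158-115118407 (minus) for TNC, chr2:215436069-215436318 (minus) for FN1, chr15:39580829-39581078 (plus) for THBS1 and chr3:49133051-49133300 (minus) for LAMB2. The gene spans given below for TNC, FN1 and LAMB2 reach into these windows, so their starts differ between sources. Distances to the start hold for the RefSeq start only. Capitals mark matches, on either strand, to the motifs searched: TATAA (TATA box), TGACGTCA (cAMP response element), TGANTCA (AP-1 site), GGAATG (TEAD site), GGGCGG (Sp1 site) and CCAAT.
TNC: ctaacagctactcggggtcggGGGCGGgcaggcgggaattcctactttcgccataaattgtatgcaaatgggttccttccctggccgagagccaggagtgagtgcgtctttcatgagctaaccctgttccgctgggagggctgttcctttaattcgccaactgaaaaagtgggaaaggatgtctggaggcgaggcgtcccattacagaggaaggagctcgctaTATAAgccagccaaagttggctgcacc
FN1: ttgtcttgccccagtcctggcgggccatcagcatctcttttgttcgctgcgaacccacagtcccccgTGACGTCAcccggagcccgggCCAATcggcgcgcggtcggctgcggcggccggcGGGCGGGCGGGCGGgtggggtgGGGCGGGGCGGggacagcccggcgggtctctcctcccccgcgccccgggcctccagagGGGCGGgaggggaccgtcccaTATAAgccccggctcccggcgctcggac
THBS1: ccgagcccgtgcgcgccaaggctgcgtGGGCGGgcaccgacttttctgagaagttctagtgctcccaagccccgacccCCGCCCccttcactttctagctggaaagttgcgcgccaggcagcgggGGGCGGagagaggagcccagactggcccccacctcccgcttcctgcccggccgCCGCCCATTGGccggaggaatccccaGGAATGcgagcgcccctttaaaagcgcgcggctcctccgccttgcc
LAMB2: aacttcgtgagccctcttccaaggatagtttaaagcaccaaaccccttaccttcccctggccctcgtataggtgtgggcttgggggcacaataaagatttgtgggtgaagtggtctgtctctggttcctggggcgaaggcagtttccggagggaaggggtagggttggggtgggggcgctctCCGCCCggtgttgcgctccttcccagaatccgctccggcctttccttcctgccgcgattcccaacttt

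Of the 10 genes 9 had a RefSeq promoter, in 11 windows, since LAMB3 has several starts, and they were set beside 35116 windows of the same length over all genes. TATAA was found in the windows of TNC, 27 bases before the start, and of FN1, 28 bases before it, and in 18.9% of all windows. TGACGTCA was found in the FN1 window alone among the members, 183 bases before the start, and in 1.65% of all windows. GGAATG was found in the THBS1 window, 46 bases before the start, and in 11.9% of all windows. TGANTCA was found in 1 of the LAMB3 windows and in 6.57% of all windows. GGGCGG was found in 11 of 11 member windows, interstitial and laminin alike, and in 42.6% of all windows, and in FN1 its matches overlap each other. CCAAT was found in the windows of FN1, THBS1 and LAMB3 and in 32.0% of all windows. None of these motifs was in the windows of all 4 lower genes (TNC, FN1, THBS1 and TGFBI) and of no laminin gene, and a match describes letters, not binding.

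The unit, FPKM, divides fragments by transcript length and by the mapped total, so levels can be set side by side between genes. Summed FPKM was 695837 and 660860 in the controls and lower, 574782 and 617668, in the treated libraries. More genes had a value above 0 in the treated libraries (15371 and 15828) than in the controls (14563 and 14716). Read depth is unknown because the table holds no counts. The 7 colon epithelial markers (EPCAM, KRT8, KRT18, KRT20, CDH1, VIL1 and CDX2) summed to 6849 and 5913 FPKM in the controls and to 5341 and 5231 FPKM in the treated libraries, so both treated sums were lower. Most of each sum was KRT8 (3616 and 3281, then 2669 and 2887 FPKM) and KRT18 (2790 and 2221, then 2298 and 2037 FPKM). The sums thus say little about the other markers. Among those, EPCAM and VIL1 had lower treated means, and CDH1, CDX2 and KRT20 had higher ones. At an unadjusted p under 0.05, VIL1 was lower and CDH1 higher among the 6 tested, and KRT20 was at or below 0.743 FPKM throughout. Of 9 fibroblast markers, 3 were tested and 1, THY1, was higher at an unadjusted p under 0.05, from 0.361 and 0.159 FPKM in controls to 1.37 and 1.93 FPKM in treated libraries. Of those 3, 2 were below 1 FPKM in both controls, THY1 and PDGFRB, so only their treated values brought them past the filter and they could hardly have appeared lower. The summed fibroblast markers ran from 4.05 to 7.51 FPKM in controls and from 5.84 to 12.2 FPKM in treated libraries. COL1A2, COL3A1 and FAP were listed at 0 or at most 0.00864 FPKM in each library, while LUM ran from 2.00 to 6.94 FPKM. PDGFRA was at or below 0.02745 FPKM and DCN at or below 0.106 FPKM. ACTA2, which was not tested, had 0.255 and 0.385 FPKM in controls and 0.6665 and 2.285 FPKM in treated libraries. The 6 endothelial markers summed to 6.46 to 8.94 FPKM in controls and 13.7 to 15.7 FPKM in treated libraries, through EGFL7 and TIE1, with CDH5 and KDR at or below 0.0404 FPKM. VWF had 0.129 and 0.0609 FPKM in controls and 0.307 and 0.226 FPKM in treated libraries. PECAM1 was at or below 0.136 FPKM. EGFL7 and TIE1 were the 2 tested, and both were higher at an unadjusted p under 0.05. TIE1 had 0.0941 and 0.0991 FPKM in controls and 2.21 and 1.67 FPKM in treated libraries. Only its treated values brought TIE1 past the filter, and it could hardly have appeared lower. The 5 leukocyte markers summed to 3.25 to 4.85 FPKM in controls and 4.86 to 18.9 FPKM in treated libraries, nearly all of it LYZ, with PTPRC at or below 0.00822 FPKM. The part of these markers in the results below was not tested.

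**Figure D1:**
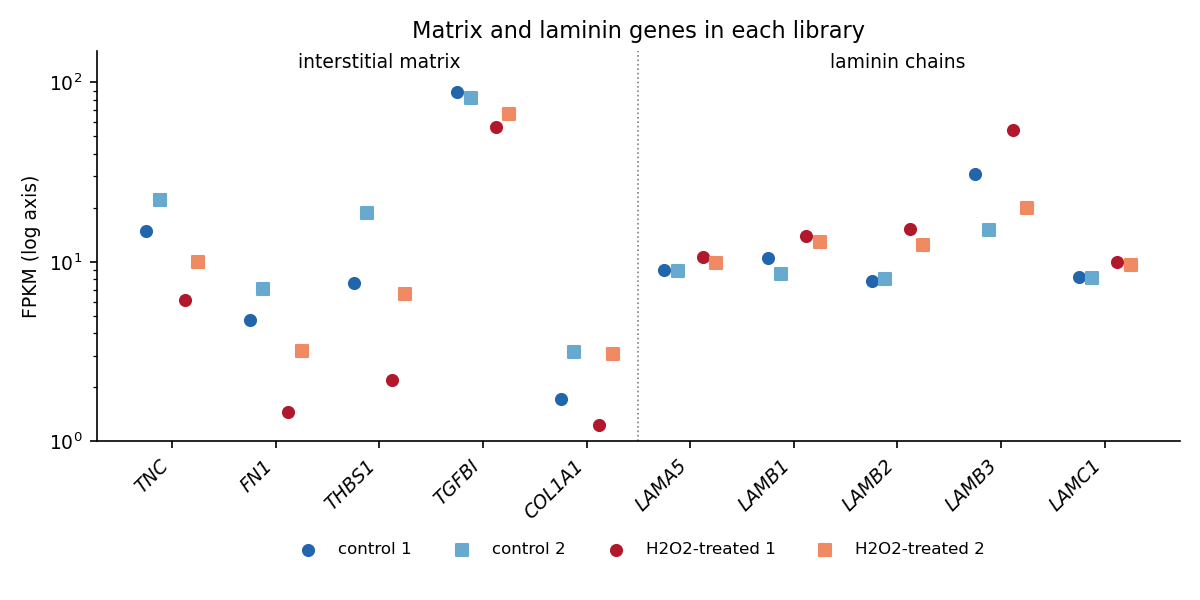
FPKM of each of the 10 genes on a log axis, 1 point per library (blue, the 2 controls; red and orange, the 2 H2O2-treated libraries). Treated points lie below both controls for TNC, FN1, THBS1 and TGFBI and above both for LAMA5, LAMB1, LAMB2 and LAMC1, while those of COL1A1 and LAMB3 overlap the controls.

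TNC encodes tenascin-C, a large modular glycoprotein of remodelling and tumour matrix, at chromosome 9, 115019578 to 115118257 (hg38, minus strand). It had 14.8 and 22.2 FPKM in the controls and 6.15 and 10.02 FPKM in the treated libraries. Every treated value lay below every control value, and the treated mean was lower by a factor of 2.29. The means were 18.5 ± 5.21 and 8.08 ± 2.74 FPKM (SD, n = 2), with a log2 change of -1.11 ± 0.28 (SE; limma adjusted p = 0.306 over all genes). With any 1 library left out, TNC kept an unadjusted p under 0.05.

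FN1 encodes fibronectin, at chromosome 2, 215360440 to 215436172 (minus strand). It had 4.75 and 7.07 FPKM in the controls and 1.46 and 3.18 FPKM in the treated libraries. The groups did not overlap, although the treated libraries differed from each other by a factor of 2.17. The log2 change was -1.085 ± 0.31 (SE; limma adjusted p = 0.329), and it also kept an unadjusted p under 0.05 without any 1 library.

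THBS1 encodes thrombospondin-1, a matricellular protein that binds cells and activates latent TGF-beta, at chromosome 15, 39581079 to 39599466 (plus strand). It had 7.63 and 18.7 FPKM in the controls and 2.19 and 6.59 FPKM in the treated libraries. The higher treated library lay just under the lower control, and the means differed by a factor of 3.0, the widest gap of the 10 genes. Its log2 change of -1.41 ± 0.51 (SE; limma adjusted p = 0.418) came with the widest spread among the 10, and its unadjusted p was no longer under 0.05 without control 2 or without treated 1.

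TGFBI encodes an adhesive matrix protein induced by TGF-beta, at chromosome 5, 136028895 to 136063818 (plus strand). It had the highest level of the 10 genes in each library, only just above LAMB3 (54.1 FPKM) in treated 1, at 88.4 and 82.0 FPKM in the controls and 56.3 and 66.95 FPKM in the treated libraries. The groups did not overlap, and the drop was smaller than that of the 3 genes above, a factor of 1.38. The log2 change was -0.47 ± 0.17 (SE; limma adjusted p = 0.42), and the unadjusted p was under 0.05 with all libraries or without treated 2, and not without another library. TGFBI alone made up 61.6% to 75.4% of the summed FPKM of the 5 interstitial genes in controls and 74.6% to 83.6% in treated libraries.

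COL1A1 encodes the alpha1 chain of collagen I, at chromosome 17, 50183289 to 50201632 (minus strand). It had 1.72 and 3.16 FPKM in the controls and 1.23 and 3.06 FPKM in the treated libraries. The groups overlapped, and the log2 change of -0.16 ± 0.35 (SE; limma adjusted p = 0.91) turned to 0.15 without control 2 and to 0.27 without treated 1. COL1A2, the partner chain in collagen I, was listed at 0 in 3 libraries and at 0.00864 FPKM in the other.

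In both groups the library numbered 2 had more TNC, FN1, THBS1 and COL1A1 than the library numbered 1. The factor was 1.498 for TNC, 1.49 for FN1, 2.45 for THBS1 and 1.83 for COL1A1 between the controls. It was 1.63 for TNC, 2.17 for FN1, 3.02 for THBS1 and 2.49 for COL1A1 between the treated libraries. For COL1A1 this spread within a group was wider than the gap between group means, and for THBS1 it was close to that gap.

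LAMA5 encodes the alpha5 chain, the laminin chain that integrins grip in trimers of mature epithelial basement membranes, at chromosome 20, 62309065 to 62367312 (minus strand). It had 9.003 and 8.93 FPKM in the controls and 10.7 and 9.82 FPKM in the treated libraries. Its treated values lay above both controls by a small step, a factor of 1.14 between means, and the log2 change of 0.18 ± 0.16 (SE; limma adjusted p = 0.752) was close to its error.

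LAMB1 encodes the beta1 chain, at chromosome 7, 107923803 to 108003255 (minus strand). It had 10.5 and 8.55 FPKM in the controls and 13.9 and 12.8 FPKM in the treated libraries. The groups were apart, with a log2 change of 0.46 ± 0.18 (SE; limma adjusted p = 0.428), and the unadjusted p was no longer under 0.05 without control 1, without control 2 or without treated 1.

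LAMB2 encodes the beta2 chain, which takes the place of beta1 in some trimers, at chromosome 3, 49121114 to 49133118 (minus strand). It had 7.86 and 8.02 FPKM in the controls and 15.3 and 12.5 FPKM in the treated libraries. The controls agreed closely and both treated libraries stood well above them, a factor of 1.75 between means. Of the 5 laminin members it had the largest log2 change, 0.73 ± 0.18 (SE; limma adjusted p = 0.305), and its unadjusted p stayed under 0.05 with any 1 library left out. The ratio of LAMB2 to LAMB1 was 0.751 and 0.939 for controls and 1.10 and 0.972 for treated libraries. The beta2 mRNA was thus at or near the level of beta1 in both treated libraries, and already near it in control 2. That ratio was given no test.

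LAMB3 encodes the beta3 chain of the anchoring trimer, at chromosome 1, 209614870 to 209652466 (minus strand). It had 31.0 and 15.0 FPKM in the controls and 54.1 and 20.04 FPKM in the treated libraries. The groups overlapped, since treated 2 lay below control 1, and the libraries of each group differed by a factor of 2.06 in controls and 2.70 in treated cells. The log2 change of 0.59 ± 0.51 (SE; limma adjusted p = 0.724) was -0.10 without treated 1 and 1.28 without treated 2. In contrast to the interstitial genes above, LAMB3 was higher in the library numbered 1 of each group.

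LAMC1 encodes the gamma1 chain, shared by most laminin trimers, at chromosome 1, 183023460 to 183145592 (plus strand). It had 8.25 and 8.12 FPKM in the controls and 9.94 and 9.60 FPKM in the treated libraries. The libraries within each group lay close together and the groups were apart by a factor of 1.19, with a log2 change of 0.23 ± 0.16 (SE; limma adjusted p = 0.658).

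**Figure D2:**
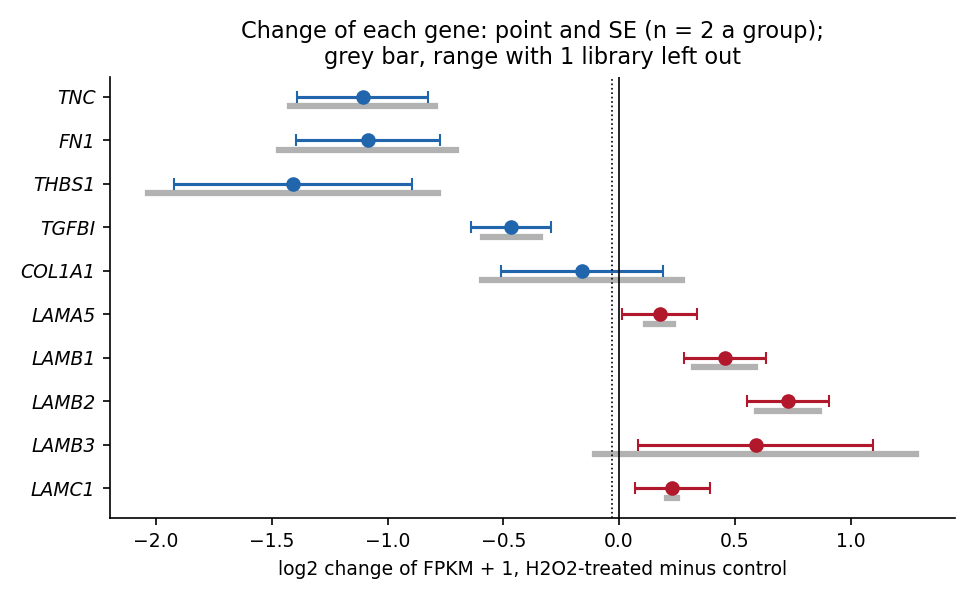
Log2 change of FPKM + 1 between treated and control cells for each gene, with its SE (n = 2 a group); grey bars give the range of the change with 1 library left out, and the dotted line is the median of all genes (-0.03). The bars of COL1A1 and LAMB3 cross 0, with COL1A1 at 0.27 and LAMB3 at -0.10 without treated 1, and those of the other 8 genes do not.

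Set against each other, the interstitial genes had a median log2 change of -1.085 and the laminin members one of 0.46, beside -0.03 for all 11318 genes tested. Without treated 1 these medians were -0.70 for the interstitial genes and 0.21 for the laminins, without control 2 the laminin median was 0.22, and with a pseudocount of 5 the interstitial median was -0.58. The mean log2(FPKM + 1) of the 5 interstitial genes minus that of the 5 laminins was -0.13 and 0.67 for controls and -1.58 and -0.44 for treated libraries. Both treated libraries were below both controls on this difference, but the nearest libraries of the 2 groups, control 1 and treated 2, were closer to each other than the 2 libraries within either group. In summed FPKM the interstitial genes went from 117.3 and 133.1 (controls) to 67.4 and 89.8 (treated), and the laminins from 66.5 and 48.6 (controls) to 103.9 and 64.8 (treated). No p is given for these summaries because the 10 genes were chosen with results of these data known. In bulk RNA, a smaller share of cells that make a transcript and less of it per cell cannot be told apart.

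**Figure D3:**
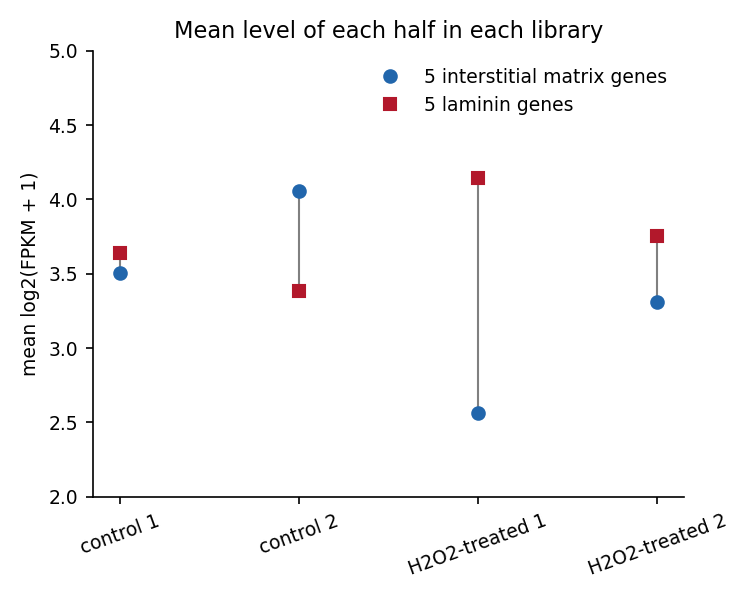
Mean log2(FPKM + 1) of the 5 interstitial matrix genes (circles) and the 5 laminin genes (squares) in each library, joined by a grey line. In treated 1 the laminins stand highest (4.14) and the interstitial genes lowest (2.56), and in control 2 the order is the other way round (4.06 interstitial, 3.39 laminin).

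By order of mean level, the controls had TGFBI first (85.2 FPKM), then LAMB3 (22.99), TNC (18.5) and THBS1 (13.2). Below them came LAMB1 (9.50), LAMA5 (8.97), LAMC1 (8.19), LAMB2 (7.94), FN1 (5.91) and COL1A1 (2.44). In the controls, LAMB3, TNC and THBS1 overlapped each other, as did LAMB1 and LAMA5, while LAMC1 lay just above LAMB2 with no overlap. In treated cells all 5 laminins (9.77 to 37.1 FPKM) had means above those of TNC (8.08), THBS1 (4.39), FN1 (2.32) and COL1A1 (2.15), and only TGFBI (61.6) stood above the laminins. In treated 2, however, TNC (10.02 FPKM) stood above LAMA5 (9.82 FPKM) and LAMC1 (9.60 FPKM).

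A wider list of 11 laminin chain genes held 6 that were tested, all with a positive log2 change except LAMB3 when treated 1 was left out. At an unadjusted p under 0.05, 3 of the 6 were higher and 0 lower, and 0 passed limma's test over all genes. Over all genes tested, 6.22% were higher and 4.91% lower at that unadjusted p. Those shares also belong beside the counts of each list below, and the lists were chosen with earlier results of these data known. LAMA3, the alpha3 chain and partner of LAMB3, had 2.11 and 1.66 FPKM in the controls and 11.97 and 8.07 FPKM in the treated libraries. That is a factor of 5.32 between means and a log2 change of 1.92 ± 0.23 (SE; limma adjusted p = 0.0933). LAMA3 did not pass after upper-quartile scaling (limma adjusted p = 0.062), quantile (0.167) or loess normalization (0.16), or with no filter (0.294). Of the scalings, TPM alone brought its limma adjusted p under 0.05 (0.0244). LAMA3 also passed without control 1 (adjusted p = 0.025), without treated 1 (0.0282) and without treated 2 (0.0473), and did not pass without control 2. LAMB3 had more FPKM than LAMA3 in every library. LAMA1, LAMA2, LAMB4 and LAMC3 were at or below 0.71 FPKM throughout and were not tested, and LAMA4 was listed at 0 in all 4 libraries.

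**Figure D4:**
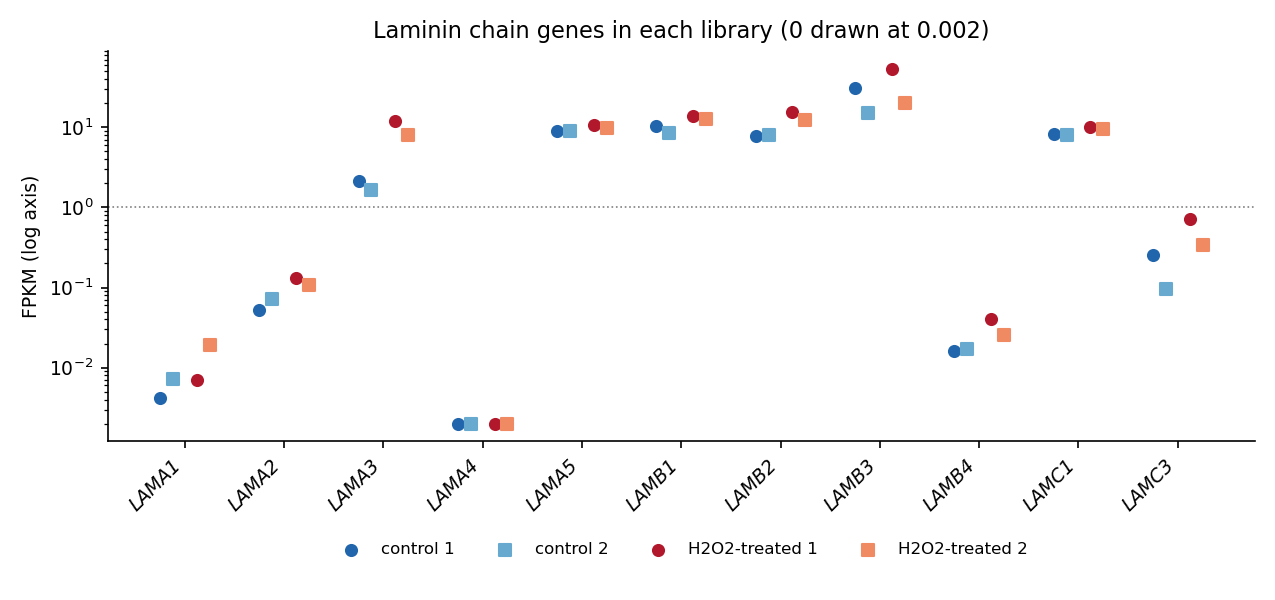
FPKM of 11 laminin chain genes in each library on a log axis, with values of 0 (LAMA4) drawn at the foot; the dotted line marks 1 FPKM. The 6 chains above the line are LAMA3, LAMA5, LAMB1, LAMB2, LAMB3 and LAMC1, and the widest step between groups is that of LAMA3, from 1.88 to 10.02 FPKM.

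Other basement membrane genes went both ways. Of 19 such genes 7 were tested, with 1 above and 2 below the controls at an unadjusted p under 0.05, and a median log2 change of 0.01. COL7A1, the anchoring fibril collagen that binds the anchoring laminin trimer, was higher, at 1.13 and 2.03 FPKM in the controls and 4.21 and 5.16 FPKM in the treated libraries (limma adjusted p = 0.247). COL18A1, the source of endostatin, was lower, at 58.4 and 48.8 FPKM and then 36.1 and 35.4 FPKM (limma adjusted p = 0.346). COL4A2, a chain of the collagen IV network, was also lower, at 4.13 and 3.63 FPKM and then 2.43 and 2.54 FPKM (limma adjusted p = 0.423). The other collagen IV chains were not tested. COL4A1 was at or below 0.0827 FPKM in every library, and COL4A3, COL4A4, COL4A5 and COL4A6 at or below 0.00965 FPKM. NID1, which links laminin to collagen IV, overlapped between groups, at 10.1 and 15.2 FPKM and 9.71 and 12.2 FPKM, and its log2 change of -0.18 was 0.10 without control 2.

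The other interstitial collagens tested lay higher in treated cells, unlike TNC, FN1 and THBS1. Of 14 interstitial collagens 4 were tested, and the 3 besides COL1A1 were all higher at an unadjusted p under 0.05. COL6A1, which with COL6A2 and a further chain forms the beaded filaments of collagen VI, had 10.8 and 10.2 FPKM in the controls and 23.8 and 21.2 FPKM in the treated libraries (log2 change 1.03; limma adjusted p = 0.184). COL6A3, a further chain of collagen VI, was too low to be tested. It had 0.0211 and 0.0282 FPKM in the controls and 0.167 and 0.179 FPKM in the treated libraries. COL6A2 had 1.71 and 1.28 FPKM and then 6.09 and 8.10 FPKM (log2 change 1.69; limma adjusted p = 0.0965). It did not pass after upper-quartile scaling (limma adjusted p = 0.0838), quantile (0.173) or loess normalization (0.16), or with no filter (0.281). COL6A2 passed over all genes after TPM rescaling (adjusted p = 0.0244), without control 1 (0.0466) and without treated 1 (0.0228), and did not pass without control 2 (0.203) or without treated 2 (0.0611). COL16A1, a fibril-associated collagen, had 3.65 and 2.60 FPKM and then 5.34 and 5.26 FPKM (limma adjusted p = 0.371).

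Matricellular and adhesive glycoproteins went both ways. Of 29 genes 13 were tested, and the 4 that were lower at an unadjusted p under 0.05 were TNC, FN1, THBS1 and TGFBI themselves. The 4 that were higher were COMP, EFEMP2, ECM1 and THBS3. COMP, a thrombospondin family protein of cartilage, had 1.69 and 1.04 FPKM in the controls and 3.85 and 4.55 FPKM in the treated libraries (limma adjusted p = 0.241). THBS3, of the same family as THBS1, had 4.19 and 5.18 FPKM and then 6.70 and 8.53 FPKM (limma adjusted p = 0.388), the other direction from THBS1. EFEMP2, an elastic fibre protein also named fibulin-4, had 0.592 and 1.36 FPKM and then 2.57 and 4.59 FPKM. ECM1, a secreted glycoprotein, had 0.526 and 0.487 FPKM and then 1.28 and 5.09 FPKM. ECM1 had a log2 change of 1.31, which was 2.02 without treated 1 (limma adjusted p = 0.0225) and 0.60 without treated 2 (0.226). ECM1 was below 1 FPKM in both controls, so only its treated values brought it past the filter, and it could hardly have appeared lower.

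Among 22 genes for collagen folding, modification and crosslinking, 18 were tested, with 2 higher (PCOLCE and P3H2) and 0 lower by an unadjusted p under 0.05, and 0 past limma's test over all genes. PCOLCE, which speeds the trimming of procollagen, had 0.68 and 0.956 FPKM in the controls and 1.69 and 3.54 FPKM in the treated libraries, and it too came past the filter by its treated values alone. P3H2, a prolyl hydroxylase of basement membrane collagens, had 1.01 and 0.901 FPKM and then 1.63 and 2.65 FPKM. SERPINH1, the collagen chaperone, had 97.7 and 87.8 FPKM and then 120.8 and 115.6 FPKM, and LOXL4, a crosslinking oxidase, had 5.03 and 3.21 FPKM and then 6.04 and 5.16 FPKM. Neither of these last genes reached an unadjusted p under 0.05.

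Among 14 proteoglycans 6 were tested, and at an unadjusted p under 0.05 there were 2 higher and 0 lower. SDC4, the syndecan that works with integrins on fibronectin, had 34.4 and 26.3 FPKM in the controls and 47.5 and 64.9 FPKM in the treated libraries (limma adjusted p = 0.309). GPC1, a glypican, had 14.8 and 15.3 FPKM and then 22.8 and 19.2 FPKM (limma adjusted p = 0.423). SDC1, the main epithelial syndecan, had 45.7 and 48.0 FPKM and then 38.3 and 34.4 FPKM. SDC3 overlapped between groups, at 27.4 and 22.3 FPKM and 29.8 and 24.4 FPKM, and its log2 change of 0.12 was -0.02 without control 2 or without treated 1.

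Of 19 matrix receptors 16 were tested, with 4 higher (ITGA3, ITGA2, ITGA5 and CD44) and 0 lower by an unadjusted p under 0.05, and 0 past limma's test over all genes. At that unadjusted p, 6.22% of all genes tested were higher and 4.91% lower. ITGA3, the alpha subunit of a laminin receptor, had 3.20 and 2.5 FPKM in the controls and 7.25 and 6.95 FPKM in the treated libraries (log2 change 1.08; limma adjusted p = 0.209). ITGA5, the alpha subunit of the main fibronectin receptor, had 7.005 and 4.40 FPKM and then 13.5 and 10.8 FPKM (limma adjusted p = 0.305), so it lay higher in the libraries where FN1 lay lower. ITGA2, the alpha subunit of a collagen receptor, had 3.50 and 2.68 FPKM and then 7.09 and 6.09 FPKM (limma adjusted p = 0.276). CD44, a hyaluronan receptor, had 2.38 and 2.58 FPKM and then 3.40 and 8.47 FPKM (limma adjusted p = 0.439), with most of the gap in treated 2. Its log2 change of 0.89 was 1.45 without treated 1 (adjusted p = 0.0309) and 0.34 without treated 2 (0.385).

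**Figure D5:**
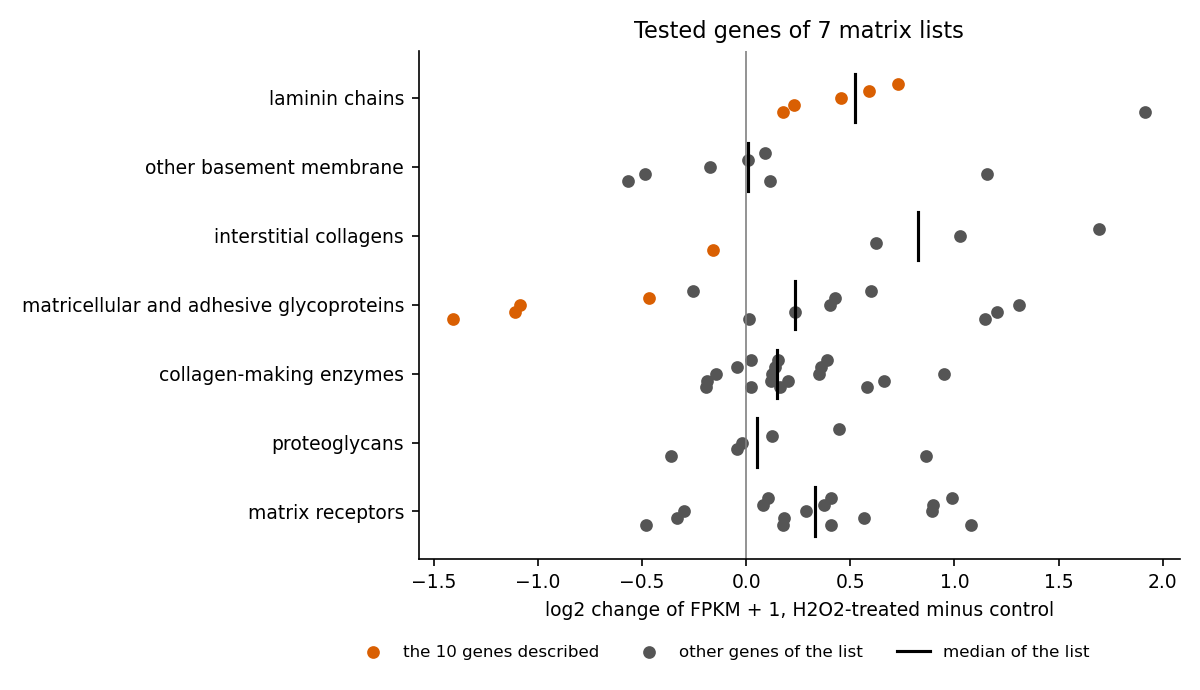
Log2 change of each tested gene in 7 matrix lists (orange, the 10 genes described; grey, the other genes of each list; black bars, the median of each list). The only orange points in the glycoprotein row are THBS1 (-1.41), TNC (-1.11), FN1 (-1.085) and TGFBI (-0.47), and grey points of the same row reach 1.31 (ECM1).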

How the data were processed

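The authors' deposited table gives expression as FPKM, with 1 column per library. STAR 2.5, Cufflinks 2.2.1 and hg38 are named in the submitters' processing notes, without their roles; which annotation and strand setting were used is not given in the sources used here. Per the labels' protocols the library kit keeps strand, but genes lie on the opposite strand over TNC, THBS1, LAMA5, LAMB1 and LAMC1 in GENCODE release 29, and reads from them may enter these values. Locus starts in the table count from 0 and are printed counting from 1.

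Values entered the model as log2(FPKM + 1). A gene was tested if 2 or more libraries reached 1 FPKM. The 11318 genes were fitted by limma 3.58.1 (R 4.3.3), with group as the only term and a variance trend with abundance. Tests were two-sided, on 6.28 total degrees of freedom of which 2 are residual. Benjamini-Hochberg adjustment covered all genes tested, with a threshold of 0.05. A pseudocount of 1 makes log2 changes understate those of low genes. Means are ± SD and log2 changes ± SE. An exact permutation test of 2 against 2 libraries cannot reach 0.05, so none is given. The model was tested on simulated data in which libraries varied independently. That test does not cover the correlation of same-numbered libraries reported below.

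The 10 genes and 11 gene lists were chosen with earlier results of these data known, and the motifs after the promoters were seen. All 151 list symbols were found, 3 by Ensembl identifier. A further laminin chain gene is not reported here. From each of the 7 matrix lists, up to 4 non-members with the smallest p were named, and untested laminin chains by level. Other genes were named after their values were seen. The 14 alternatives covered pseudocounts, filters, scalings, no variance trend, a replicate block and each library left out. Plots used matplotlib 3.10.9 in Python 3.11.15.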

Additional observations from a re-analysis of the deposited data

How the results depend on the processing

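The 10 genes under 14 settings gave 138 changes, since FN1 and COL1A1 leave when the mean must reach 5 FPKM, and 3 turned sign: COL1A1 without control 2 (0.15) or treated 1 (0.27), over -0.59 to 0.27 with a library left out, and LAMB3 without treated 1 (-0.10), over -0.10 to 1.28. Among 24 other matrix genes, 3 of 323 turned: NID1 without control 2 (0.10; range -0.45 to 0.10) and SDC3 without control 2 or treated 1 (range -0.022 to 0.27). These 24 were named for the smallest p in their lists, a choice that favours few turns. Genes called over all genes tested, 0 as reported by limma, numbered 5 with the filter at a mean of 5, 32 after TPM rescaling and 9 after upper-quartile scaling, all higher, and 8 to 140 with a library left out. Genes higher at an unadjusted p under 0.05 (704) numbered 1231 with no filter, 339 at a mean of at least 5, 1213 after TPM and 1185 after upper-quartile scaling, and 321 to 1067 with a library left out. Genes lower (556) numbered 131 after TPM and 164 after upper-quartile scaling, and 99 to 1291 with a library left out. Upper-quartile scaling moved the median of all genes by 0.14. Of the 10 genes, 6 were under that p as reported, 3 with no filter (TGFBI, LAMB1 and LAMB2), and 3 to 7 with a library left out, 3 of them (TNC, FN1 and LAMB2) without control 2 or without treated 1. The median of the interstitial genes ran from -1.42 to -0.70 and that of the laminins from 0.21 to 0.59 with a library left out. The cause of these shifts was not tested.

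The labels number the libraries 1 and 2 in each group but name no shared culture or day, so the numbers are not taken to pair them, although the deviations of same-numbered libraries correlated (r = 0.451 across genes). With a replicate block, limma called 587 genes, 397 higher and 190 lower, and 1108 higher and 1109 lower by unadjusted p. TNC (adjusted p = 0.00407), FN1 (0.00796), THBS1 (0.00121) and LAMB2 (0.0321) were then past the threshold, among 587 of the 11318 genes tested. Of the 24 other matrix genes 12 passed, but these 24 had been named for the smallest p in their lists. That choice, made on the same libraries, favours a high share, so the share does not describe matrix genes in general. That fit has 1 residual degree of freedom. With a library left out, its group's lone library was assumed to vary like the other group. Read depth, which the table does not give, limits the low genes most.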
